A study of Mus musculus with 4 samples.

Results

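The nuclei described here are the non-neuronal nuclei of 2 libraries of mouse forebrain, taken 7 and 3 days after the middle cerebral artery had been permanently occluded (MCAO). A barcode was taken as a member when it held more than 1000 UMIs (unique molecular identifiers, the count of captured RNA molecules) and when the neuronal transcripts Rbfox3, Snap25, Syt1 and Meg3 together made up less than 0.2% of them. This gave 1041 of 3734 barcodes in the day 3 library (27.9%, exact 95% binomial interval 26.4% to 29.3%) and 537 of 1746 in the day 7 library (30.8%, 28.6% to 33.0%), or 1578 of 5480 in both. Over all 4 libraries of the study the rule took 2562 of 8909 barcodes. The other members were 612 nuclei of the sham control library and 372 of the day 1 library, which are given below only to place the day 3 and day 7 values. All 4 groups were male C57Black/6 mice 3 months of age, without any transgene. In the injured groups the artery was coagulated and then transected, so that the occlusion was permanent, and the labels describe no separate procedure for the sham control. Each group was 1 library of 3 forebrain hemispheres pooled before sequencing, so no difference below has a replicate check, no p-value was computed, and all intervals are for counting error alone. The surgical protocol in the labels speaks of intact cortex as control tissue where the series design speaks of hemispheres. The labels of the compared libraries may be exchanged: the breakdown of nuclei by time point in the study gives day 7 the larger number, whereas the deposited day 3 library is the larger. The doubt rests on that number, and no measured level was used to settle it. The deposited labels were kept, and with the labels exchanged every ratio below becomes its inverse. Ratios at the day 3 make-up, defined below, would then become inverses at the make-up of day 7.

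Non-neuronal nuclei of the forebrain belong to several lineages. Oligodendrocytes form myelin and arise from oligodendrocyte precursors, which persist in the adult brain and pass through a newly formed, premyelinating stage. Astrocytes take up glutamate and potassium, and around an infarct they enlarge and assemble a scar rich in intermediate filaments. Microglia are the resident phagocytes, joined after stroke by macrophages from the blood and the brain borders. Endothelial cells with their tight junctions make the blood-brain barrier, mural cells and fibroblasts line the vessels, and ependymal and choroid plexus cells line the ventricles. The first week after permanent occlusion covers the passage from cell death and clearance to scar formation and vascular repair, which is the interval that a comparison of day 7 with day 3 addresses.

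Most members carried the markers of glia and vessels, apart from 332 of the 1578 that lay in the mitochondria-rich clusters described next. Summed over 10 neuronal genes that the rule did not use, the level was 1841 counts per 1000000 member UMIs (CPM) at day 3 and 1588 CPM at day 7, against 8608 and 8698 CPM in the barcodes of at most 100 UMIs, which hold free RNA. By that ratio free RNA was estimated as 21.4% of the day 3 members' UMIs and 18.3% of the day 7 members' UMIs. The estimate counts all neuronal RNA as free, and most of that RNA lay in the mitochondria-rich barcodes, at 5548 and 6252 CPM of their UMIs against 1026 and 800.05 CPM in the other members. In the other members alone the estimate was 11.9% at day 3 and 9.20% at day 7. Oligodendrocyte markers summed to 6167 CPM at day 3 and 7535 CPM at day 7, astrocyte markers to 7173 and 6532 CPM, and microglia markers to 1035 and 1136 CPM. Endothelial markers stood at 1958 and 1291 CPM. Lymphocyte markers were near absent, at 5.84 and 3.75 CPM with 2 and 4 of 7 markers at 0. The median member held 2286 UMIs at day 3 and 2685 UMIs at day 7. A single barcode was shared between the day 3 and day 7 members. Near the cut, 107 day 3 and 41 day 7 members held 0.18% to 0.2% neuronal transcripts, and 78 and 20 barcodes just outside it held 0.2% to 0.22%. The 4 rule genes themselves stood at 51.6 and 46.0 CPM for Rbfox3, 188 and 165 CPM for Snap25, 287 and 205 CPM for Syt1, and 407 and 366 CPM for Meg3.

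The members of all libraries were clustered together with 708 further barcodes that held 0.2% to 0.4% neuronal transcripts. Levels and shares below are of members alone unless another neuronal cut is named, while marker scores and leading genes of clusters were taken over all clustered barcodes. In 2 clusters mitochondrial transcripts made up 34.01% and 34.2% of the members' UMIs. These mitochondria-rich barcodes numbered 237 at day 3 (22.8%) and 95 at day 7 (17.7%), against 31 in sham control and 82 at day 1. The nuclear RNA Malat1 stood at 5119 and 13327 CPM in them, against 103046 CPM in an oligodendrocyte-like cluster. Of the marker sets, both clusters scored highest for neurons (2.42 and 2.01, as mean log2 folds of the leading markers over the other barcodes), and their leading genes included the neuronal transcripts Camk2a, Ddn and Camk2n1 in one and Shank1 in the other. They satisfied the rule and were kept, but they were given no cell type. In bulk sums such as these, fewer cells of a type and less RNA per cell cannot be told apart. Each pooled ratio was therefore also computed with the day 7 profile of every cluster weighted by that cluster's share of the day 3 UMIs, which is called the ratio at the day 3 make-up.

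The widest difference between the libraries lay in a pair of near-identical sequences. mt-Nd3 encodes subunit 3 of respiratory complex I and lies on the mitochondrial genome (M:9459-9806, plus strand, GRCm38, 348 bases), while Gm28438 is an unprocessed pseudogene in the nuclear genome (chr1:24612775-24613119, minus strand, 345 bases). The first 60 bases of each, 5′ to 3′, are shown because, over the 345 bases compared, the reference copies differ only within them, with the differing base in capitals:
mt-Nd3: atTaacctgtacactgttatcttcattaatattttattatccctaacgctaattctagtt
Gm28438: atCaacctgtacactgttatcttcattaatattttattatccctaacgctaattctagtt
Counted from the 5′ end of mt-Nd3 the difference is T3C, and the other 344 of 345 bases were the same. The sham members held 1269 UMIs of mt-Nd3 (681 CPM), those of day 1 held 454 (295 CPM), those of day 3 held 0, and those of day 7 held 808 (432 CPM). Gm28438 showed the mirror image, with 1 UMI in the sham members, 1637 UMIs (531 CPM) in those of day 3, and 0 in those of days 1 and 7. The day 3 library thus stood apart from the other 3, and the same held outside the members. In the other barcodes with over 1000 UMIs, mt-Nd3 had 621, 289, 1 and 380 UMIs in sham control, day 1, day 3 and day 7, and Gm28438 had 0, 0, 1316 and 2. In free RNA mt-Nd3 had 313, 310, 0 and 306 UMIs. Taken against a floor of 3 UMIs, mt-Nd3 was at least 444-fold higher at day 7 and Gm28438 at least 331-fold lower. The sum of both genes was 531 CPM at day 3 and 432 CPM at day 7, a ratio of 0.814 (95% interval 0.747 to 0.886). How the counting divided reads between the copies is uncertain, and which base the reads carried was not analysed here. With 1 library per group, a difference between the pooled mice cannot be told apart from a difference between days.

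**Figure D1:**
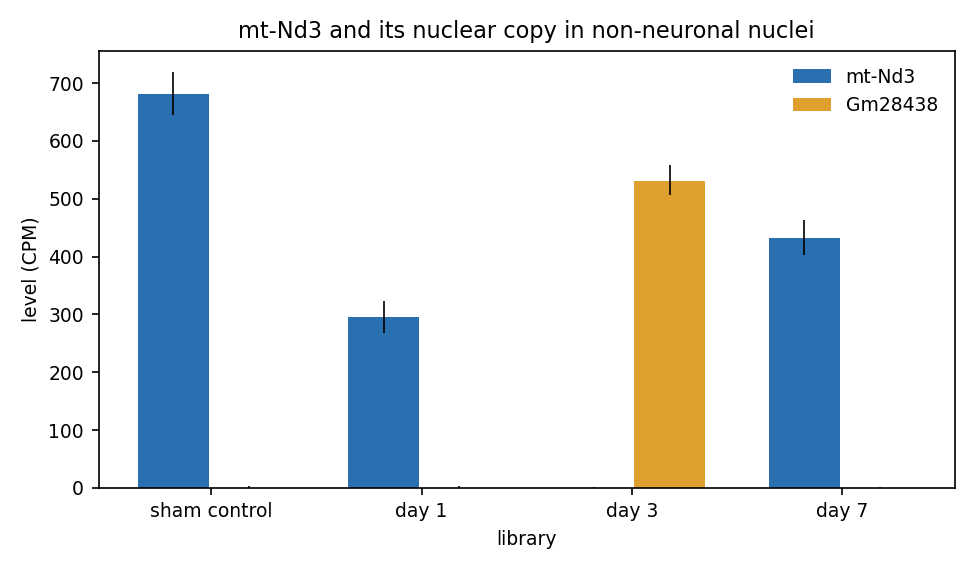
UMIs of mt-Nd3 and its nuclear copy Gm28438 in the non-neuronal nuclei of each library, as CPM of all member UMIs. Day 3 holds 531 CPM of Gm28438 and no mt-Nd3, whereas the other 3 libraries hold 295 to 681 CPM of mt-Nd3 and at most 0.537 CPM of Gm28438.

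The make-up of the non-neuronal nuclei differed between the libraries. Classes were named from marker genes and are therefore called by their likeness. Oligodendrocyte-like nuclei made up 26.2% of members at day 3 (273 nuclei) and 37.2% at day 7 (200 nuclei), a difference of 11 percentage points (95% interval 6.06 to 16.0). Astrocyte-like nuclei stood at 17.2% (179 nuclei) and 10.2% (55 nuclei), a difference of -6.95 points (-10.4 to -3.30). Endothelial-like nuclei, mural cells included, stood at 7.01% (73 nuclei) and 3.54% (19 nuclei), a difference of -3.47 points (-5.69 to -1.04). For these 3 classes the interval of the difference lay on one side of 0. So did that of the mitochondria-rich barcodes (-5.08 points, -9.19 to -0.769). Their interval reached both sides above 2000 UMIs (-9.20 to 0.639) and at the 0.1% neuronal cut (-9.09 to 0.821). Oligodendrocyte precursor-like nuclei (68 and 38, difference 0.544 points, -2.08 to 3.43) and microglia-like nuclei (114 and 65, difference 1.15 points, -2.19 to 4.72) had intervals that reached to both sides. In the sham control library the oligodendrocyte-like share was 43.8%, and the day 7 share lay between it and the day 3 share. The other 2 classes stood otherwise: the sham shares were 17.97% astrocyte-like and 6.86% endothelial-like, close to those of day 3, and the day 7 shares lay below both. In the day 1 library the 3 shares were 37.4%, 12.4% and 2.96%, each nearer to day 7 than to day 3. With the mitochondria-rich barcodes left out, the oligodendrocyte-like share was 34% at day 3 and 45.2% at day 7, the astrocyte-like share 22.3% and 12.4%, and the endothelial-like share 9.08% and 4.30%.

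**Figure D2:**
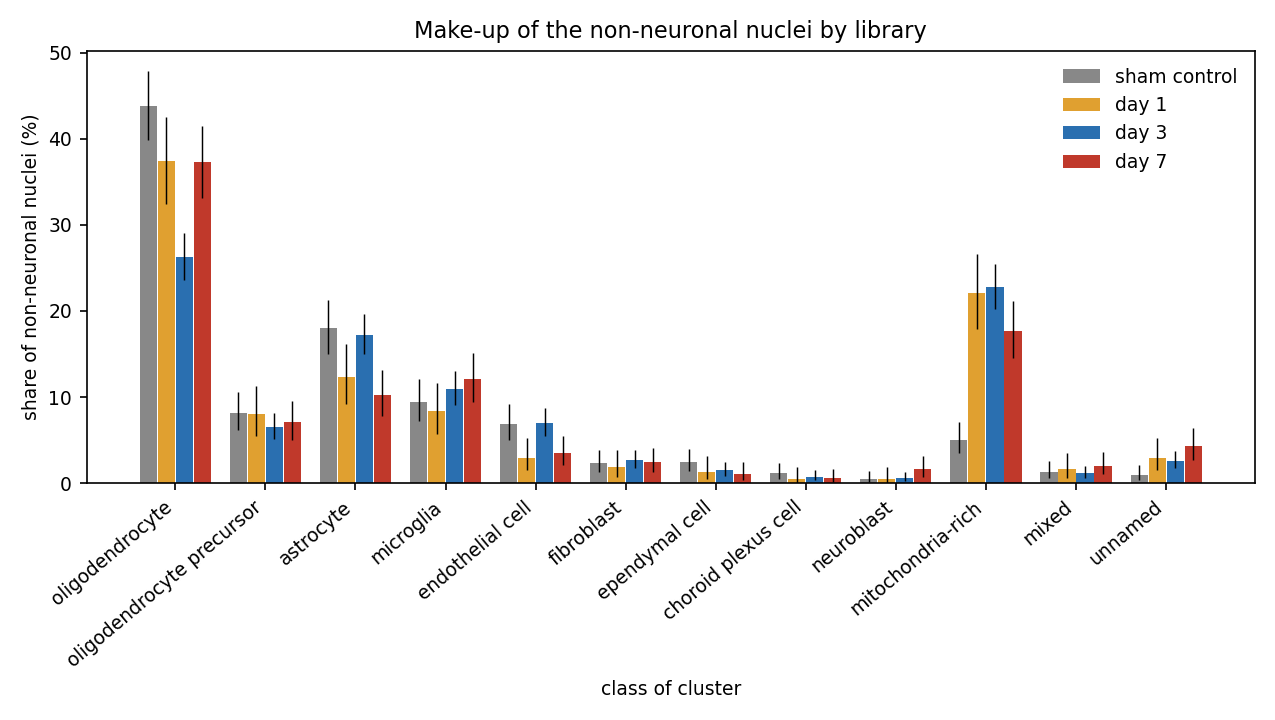
Share of non-neuronal nuclei in each class, in percent, for the 4 libraries, with exact 95% binomial intervals as bars. Oligodendrocyte-like nuclei are 26.2% at day 3 and 37.2% at day 7, and astrocyte-like nuclei 17.2% and 10.2%.

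The oligodendrocyte-like nuclei themselves fell into 3 clusters that the libraries filled differently. The largest cluster of the sham library held 208 of its nuclei but 3, 18 and 8 nuclei of days 1, 3 and 7, while the main cluster after injury held 3 sham nuclei and 100, 157 and 150 nuclei of days 1, 3 and 7. The remaining cluster held 57 sham nuclei and 36, 98 and 42 nuclei of days 1, 3 and 7. At a finer resolution the largest oligodendrocyte-like clusters of the libraries differed, one with 111 nuclei of day 3 and 61 of day 7 and another with 75 and 99, the latter with Spock1 among its leading genes. A further cluster stayed unnamed, with 27 nuclei at day 3 (2.59%) and 23 at day 7 (4.28%), against 6 in sham control and 11 at day 1. Its leading genes were Cnksr3, 9530059O14Rik, Gm26834, Tmem163, Tmem2, Pik3r3, Sema5a, Nfasc, Gm13187 and Bfsp2. Its marker scores for newly formed oligodendrocyte (2.13) and oligodendrocyte (2.05) were too close to name it. At coarser and finer resolution a cluster with mostly the same leading genes was named newly formed oligodendrocyte-like, with 3 and 9 nuclei of days 3 and 7 at resolution 0.5 and 10 and 12 at resolution 2.0. At the finer resolution the other 17 and 12 nuclei of the unnamed cluster fell in the oligodendrocyte-like class. When the members alone were clustered, this cluster did not appear, and 65 of its 67 nuclei over all libraries fell in the oligodendrocyte-like class.

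Across the pooled sums, 8290 genes reached a mean of 20 CPM. A gene was called past the fold at a ratio of at least 2 or at most 0.5. By this, 61 genes (0.736%) were higher and 61 genes (0.736%) lower at day 7, and the median gene had a log2 ratio of -0.03. The pair described above is counted among them, mt-Nd3 as higher and Gm28438 as lower. The mean is taken over both libraries, so that a gene can reach it through its higher library alone. This was so for 28 of the 61 higher genes, below 20 CPM at day 3, and for 31 of the 61 lower genes, below 20 CPM at day 7. At the day 3 make-up, 32 of the 61 higher and 25 of the 61 lower genes were still past the fold. By the UMIs of the library in which a gene was higher, 30 of the higher genes had their largest share in oligodendrocyte-like nuclei (over 50% for 18 of them), 11 in the unnamed cluster (9) and 6 in microglia-like nuclei (3). Of the lower genes 25 had their largest share in mitochondria-rich barcodes (over 50% for 8) and 19 in endothelial-like nuclei (12). At least 20% of the UMIs lay in 1 nucleus for 8 of the higher and 2 of the lower genes, among them Tmem2 (46.0%), Gm13187 (25.8%) and Pik3r3 (20.4%), all with their largest share in the unnamed cluster.

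**Figure D3:**
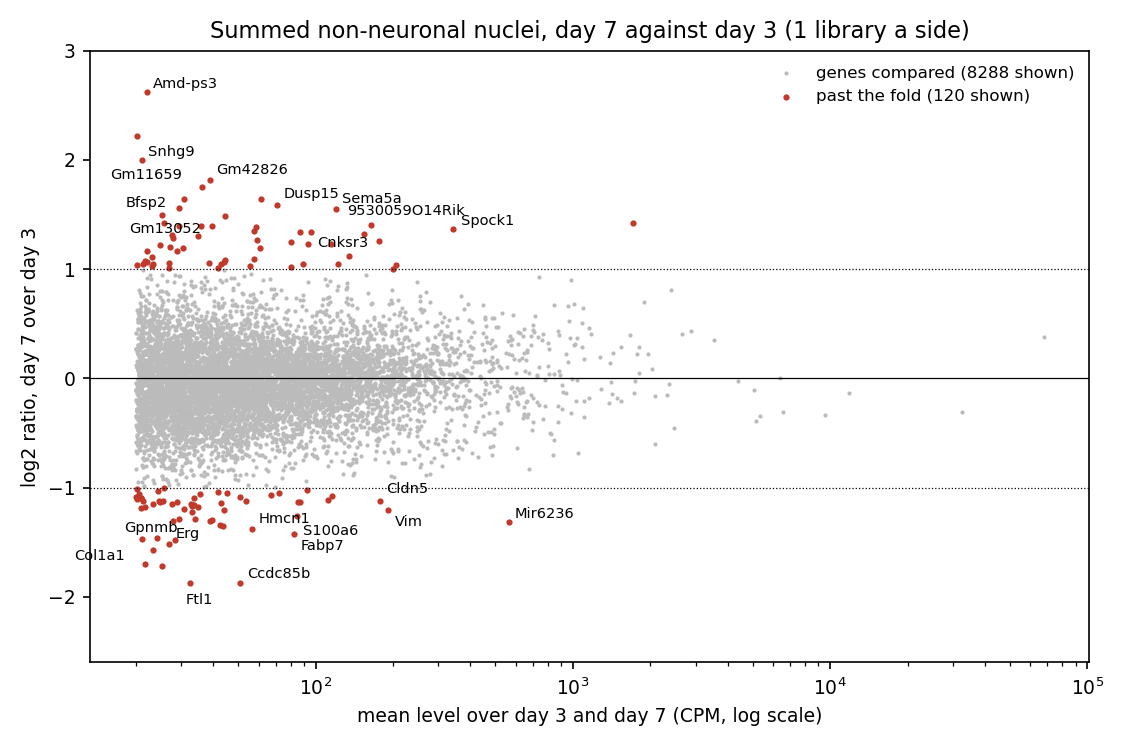
Ratio of day 7 to day 3 (log2) against mean level (CPM, log scale) for 8288 genes in the summed non-neuronal nuclei, with the genes past a 2-fold ratio coloured and mt-Nd3 and Gm28438 left out. The 120 coloured genes lie on both sides of a median close to 0.

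Among the named genes higher at day 7 were genes of the oligodendrocyte lineage. Spock1, which encodes a secreted proteoglycan (testican), stood at 292 CPM in the sham library and, in order of time, at 481, 190.1 and 491 CPM in the injured libraries, a ratio of 2.58 (2.33 to 2.87). At the day 3 make-up the ratio was 1.78, and 71.5% of its UMIs at day 3 and 83.3% at day 7 lay in oligodendrocyte-like nuclei. Dusp15, a dual-specificity phosphatase expressed in the oligodendrocyte lineage, stood at 76.8, 72.8, 35.4 and 106 CPM in the same order, a ratio of 3.01 (2.37 to 3.84), and 2.18 at the day 3 make-up. For both genes day 3 was the lowest of the 4 libraries and day 7 the highest. Enpp6, a choline phosphodiesterase known as a marker of newly formed oligodendrocytes, stood at 54.2, 38.3, 32.4 and 82.9 CPM (ratio 2.56, 1.98 to 3.32), and at the day 3 make-up its ratio of 1.99 was no longer past the fold.

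Other named genes had their largest share of day 7 UMIs in the unnamed cluster. Sema5a, a semaphorin that acts on axons, stood at 74.1 CPM in the sham library and at 73.4, 61.0 and 179 CPM in the libraries of days 1, 3 and 7 (ratio 2.93, 2.44 to 3.52). The unnamed cluster held 14.9% of its UMIs at day 3 and 62.0% at day 7. Cnksr3, a scaffold protein, had a ratio of 2.53 (2.08 to 3.09) with 28.0% and 69.4% of UMIs in that cluster. The lens filament gene Bfsp2 (3.12, 2.16 to 4.56) and the noncoding 9530059O14Rik (2.50, 2.14 to 2.92) had shares of 34.8% and 55.2%, and of 34.9% and 61.2%. The unnamed cluster held 2.59% of nuclei at day 3 and 4.28% at day 7. At the day 3 make-up the ratios were 2.2 for Sema5a, 1.97 for Cnksr3, 2.24 for Bfsp2 and 1.78 for 9530059O14Rik.

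The remaining named genes of this direction were a pseudogene, a small nucleolar RNA host gene and predicted genes. The pseudogene Amd-ps3 stood at 3.76, 7.80, 6.16 and 38.0 CPM in sham control, day 1, day 3 and day 7 (ratio 6.16, 3.67 to 10.8). Only the day 7 library was high. The predicted genes Gm42826 (ratio 3.52, 2.52 to 4.97) and Gm13052 (2.79, 2.07 to 3.79) overlapped no other gene, whereas Snhg9 (4.00, 2.49 to 6.58) overlaps Rps2 and Gm11659 (3.36, 2.38 to 4.8) overlaps Mapt. The strand used in counting is not given in the sources used here, so reads of these last pairs cannot be assigned.

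Among the named genes lower at day 7 were genes of an intermediate filament, a calcium-binding protein and a fatty-acid-binding protein. Vim, an intermediate filament of endothelial cells and reactive astrocytes, stood at 104 CPM in the sham library, then at 94.2, 267 and 116 CPM in the libraries of days 1, 3 and 7. It was 2.30-fold lower at day 7 (ratio 0.435, 0.373 to 0.506), and the ratio at the day 3 make-up was 0.606. S100a6, a calcium-binding protein, stood at 21.5, 31.8, 119 and 49.8 CPM (2.40-fold lower, ratio 0.417, 0.328 to 0.525). Fabp7, a fatty-acid-binding protein of radial glia and astrocytes, stood at 22, 25.3, 120.4 and 44.9 CPM (2.68-fold lower, ratio 0.373, 0.291 to 0.474), and 60.6% of its day 3 UMIs and 57.1% of its day 7 UMIs lay in mitochondria-rich barcodes. For these 3 genes day 3 was the highest library and day 7 lay between it and sham control.

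Among transcripts of fibroblasts and vessels, Col1a1, a chain of type I collagen, stood at 9.66, 8.45, 33.1 and 10.2 CPM in sham control, day 1, day 3 and day 7 (3.25-fold lower, ratio 0.307, 0.178 to 0.505). Fibroblast-like nuclei held 78.4% of its day 3 UMIs, with 28 such nuclei at day 3 and 13 at day 7. Cldn5, the tight-junction claudin of brain endothelium, stood at 164, 74.7, 244 and 112 CPM (2.18-fold lower, ratio 0.458, 0.391 to 0.535). Endothelial-like nuclei held 95.9% and 96.2% of its UMIs, and its ratio at the day 3 make-up was 0.736. Erg, an endothelial transcription factor, and the basement membrane gene Hmcn1 were 2.87-fold and 2.60-fold lower, with ratios of 0.558 and 0.607 at the day 3 make-up. The part of the lower share of endothelial-like nuclei in the ratios of Cldn5, Erg and Hmcn1 was not tested. The ratio of Col1a1 at the day 3 make-up was 0.375.

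Gpnmb, a membrane glycoprotein of lipid-laden macrophages, stood at 2.68, 11.7, 35.0 and 11.8 CPM (2.98-fold lower, ratio 0.336, 0.202 to 0.535), with 74.1% of its day 3 UMIs in microglia-like nuclei. That class held 32 nuclei with markers of border or blood myeloid cells at day 3, and nearly all of its Gpnmb UMIs of that day lay in them. Ftl1, the ferritin light chain, stood at 44.6, 29.2, 50.9 and 13.9 CPM (3.66-fold lower), and its ratio in free RNA was 0.289. Mir6236, a short annotated RNA with high counts in most libraries, stood at 1044, 953, 804 and 324 CPM (2.48-fold lower) with a free RNA ratio of 0.369. For Ftl1 and Mir6236 free RNA thus differed between the libraries by about as much as the members did. Among the other lower genes of these paragraphs, the free RNA ratio was 0.349 for Gpnmb, 0.381 for Vim and 0.407 for Cldn5. It was 0.418 for Erg and 0.436 for Fabp7. Nearer to 1 were S100a6 (0.541), Col1a1 (0.629), Ccdc85b (0.659) and Hmcn1 (0.890). The part of free RNA in the member ratios was not tested. Ccdc85b, which overlaps Fosl1, was 3.65-fold lower (49.4, 45.5, 80.1 and 21.9 CPM).

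Gene lists were read by their counts past the fold and by their median log2 ratio, beside -0.03 for all genes. In the oligodendrocyte lineage, 7 of 8 genes of newly formed oligodendrocytes were compared, 6 had ratios above 1 and 1 was past the fold (Enpp6), with a median of 0.68 and of 0.45 at the day 3 make-up. Bcas1, which marks premyelinating and myelinating cells, stood at 424, 322, 301 and 481 CPM in sham control, day 1, day 3 and day 7 (ratio 1.6, 1.46 to 1.76). The transcription factor gene Tcf7l2 and the kinase gene Fyn had ratios of 1.68 and 1.61, and Prom1 of 0.928. None of the 15 myelin genes was past the fold, 12 had ratios above 1, and their median of 0.29 was -0.08 at the day 3 make-up. Mbp, myelin basic protein, stood at 1910.3, 1739, 1629 and 1986 CPM (ratio 1.22, 1.17 to 1.27), and Mobp at 762, 678, 710.2 and 611 CPM (0.860). Aspa, which degrades N-acetylaspartate, and Myrf, the transcription factor that drives myelin genes, had ratios of 1.73 and 1.87. The list of oligodendrocyte genes linked to injury, which the study chose in part on these samples and is no independent evidence, had 10 of 11 genes compared and 0 past the fold, with a median of 0.26 and of 0.06 at the day 3 make-up. Its alarmin gene Il33 stood at 162, 178, 98.9 and 165 CPM (ratio 1.67, 1.42 to 1.96).

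**Figure D4:**
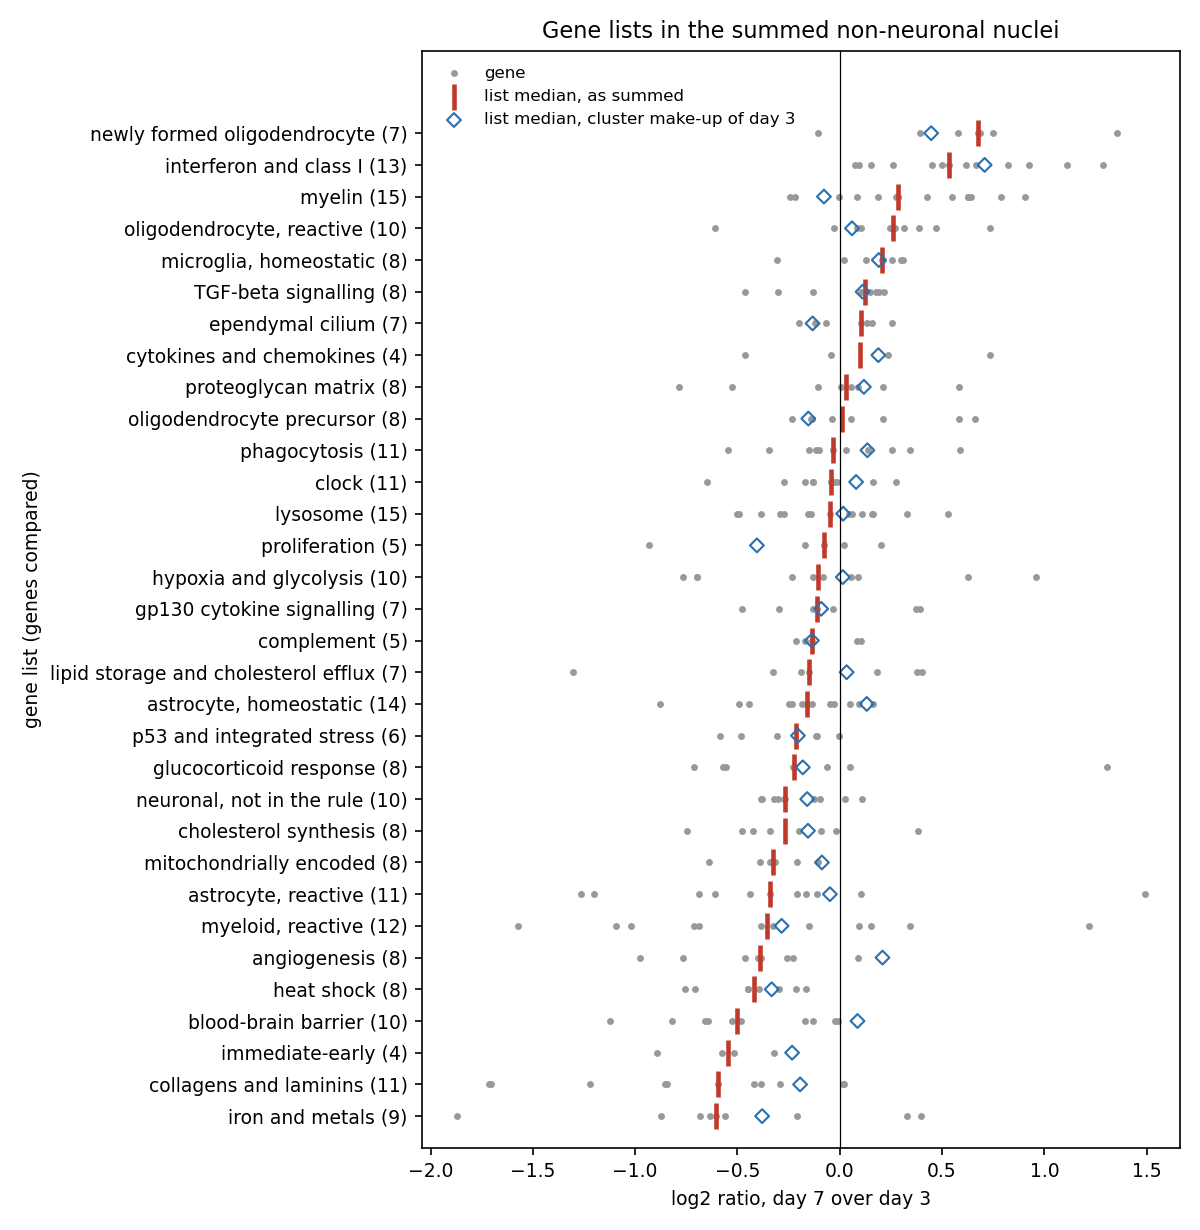
Log2 ratio of day 7 to day 3 for the genes of each list with at least 4 compared genes (grey points), the list's median (red line) and its median at the day 3 make-up (blue diamond), with mt-Nd3 left out. Newly formed oligodendrocyte and interferon genes have medians of 0.68 and 0.54, and collagens and laminins and the blood-brain barrier list medians of -0.60 and -0.50.

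Vascular lists stood on the other side. All 10 blood-brain barrier genes had ratios below 1 with a median of -0.50 and 1 past the fold (Cldn5), but the median at the day 3 make-up was 0.09. The amino acid transporter Slc7a5 (0.567) and the thyroid hormone and organic anion transporter Slco1c1 (0.633) were at the low end, and the junction scaffold Tjp1 at the high end (468, 337, 510.3 and 501 CPM, ratio 0.983). Of 8 angiogenesis genes compared none was past the fold, the median was -0.39, and it was 0.21 at the day 3 make-up. Pecam1, an endothelial adhesion molecule, stood at 47.8, 24.0, 72.7 and 36.9 CPM (0.508), and the growth factor gene Vegfa at 78.9, 69.5, 61.0 and 35.9 CPM (0.588). Of 11 collagens and laminins 3 were past the fold, all of them fibrillar collagen genes (Col1a1, Col3a1 and Col1a2), and the median of -0.60 was -0.19 at the day 3 make-up, where Col1a2 was no longer past the fold (0.560). Col3a1 stood at 6.44, 12.3, 38.6 and 11.8 CPM, and was 3.28-fold lower at day 7, but 23.5% of its day 3 UMIs lay in 1 nucleus.

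Astrocyte and stress lists had medians below 0. Of 11 reactive astrocyte genes 2 were lower (Vim and S100a6) and 1 higher, with a median of -0.34 and of -0.05 at the day 3 make-up. The higher gene was Thbs4, a secreted thrombospondin, at 12.9, 7.80, 13.3 and 37.5 CPM (2.82, 1.89 to 4.25), but 62.9% of its UMIs lay in 1 nucleus. Gfap, the intermediate filament of reactive astrocytes, stood at 82.1, 205, 391 and 242 CPM in sham control, day 1, day 3 and day 7 (1.61-fold lower, ratio 0.621, 0.556 to 0.692). Aqp4, the water channel of astrocyte endfeet, stood at 85.9, 71.5, 165 and 89.9 CPM (0.544), whereas the glutamate transporter Slc1a2 stood at 1932, 2044, 2415 and 2335 CPM (0.967). Of 9 iron and metal genes 1 was past the fold as lower (Ftl1) and 7 had ratios below 1, with a median of -0.60 and of -0.38 at the day 3 make-up. Fth1, the ferritin heavy chain, stood at 1038, 1864, 2518 and 1658 CPM (0.658, 0.631 to 0.687), with 67.7% and 67.5% of UMIs in mitochondria-rich barcodes. The metallothionein genes Mt1 (654, 1388, 1285 and 801 CPM, ratio 0.623), Mt2 (0.546) and Mt3 (0.644) had ratios below 1 without passing the fold. All 8 heat-shock genes (median -0.42, at the day 3 make-up -0.33) and all 6 genes of p53 and integrated stress signalling (-0.21) had ratios below 1 with none past the fold. The 4 immediate-early genes compared had a median of -0.54, or -0.23 at the day 3 make-up, among them Klf6 with a ratio of 0.539, or 0.633 at that make-up. Of the 8 mitochondrially encoded genes mt-Nd3 alone was past the fold, and the median of the list was -0.32, or -0.09 at the day 3 make-up. The mitochondrial share of member UMIs was 7.92% at day 3 and 6.61% at day 7, beside 4.14% in sham control.

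All 13 interferon-inducible and class I antigen presentation genes compared had ratios above 1 in the pooled sums. Interferons induce these genes, and their products sense viral RNA, restrict its translation or present peptides. Of the other 11 of 24 genes, too low to be compared, Isg15 (14.9 and 13.4 CPM) and Psmb8 (8.76 and 8.56 CPM) had ratios below 1. Of the 13 genes, 2 were past the fold, and the ratios ran from a log2 of 0.07 to 1.29 with a median of 0.54, or 0.71 at the day 3 make-up. Of the 13 genes 4 were below 20 CPM at day 3 and entered only through day 7, both genes past the fold among them, so that these counts and the median are a description. With no filter on the level the median was 0.48. Parp14, an ADP-ribosyltransferase, stood at 19.3, 7.80, 16.2 and 39.6 CPM in sham control, day 1, day 3 and day 7 (ratio 2.44, 1.68 to 3.57). Oasl2, a relative of the oligoadenylate synthetases, stood at 18.3, 9.75, 14.6 and 31.6 CPM (2.16, 1.44 to 3.26). Stat2 stood at 43.5, 40.3, 33.4 and 53 CPM (1.59), and Rnf213, a large ubiquitin ligase, at 48.3, 34.4, 49.96 and 88.3 CPM (1.77). For all 4 genes day 7 was the highest library. B2m, the invariant chain of class I molecules, stood at 51.5, 46.8, 98.3 and 109 CPM, a ratio of 1.11 whose interval spanned 1 (0.925 to 1.33). Summed over the list the level was 538, 347, 615 and 860 CPM, and free RNA held 571 CPM at day 3 and 739 CPM at day 7.

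Promoters of the list are described because all its compared members had ratios above 1. The interferon-stimulated response element was searched as GAAANNGAAA on both strands (TTTCNNTTTC on the other) in windows from 250 bases before to 50 bases after each start, from RefSeq (GRCm38.p6). Of 24 genes 19 had a window, and 8 held a match (B2m, Bst2, Ddx58, Ifit1, Ifit3, Isg15, Stat2 and Trim30a), against 1131 of all 32851 windows (3.44%). A match is a description of the letters only. Of the genes past the fold in the pooled sums, Oasl2 had no match and Parp14 had no window. Rnf213, also higher in the microglia-like nuclei, had no match, whereas Trim30a did. Isg15, with a ratio below 1, held a match. The windows printed here were picked from genes with a match. The windows of Stat2 (chr10:128270248-128270547, plus strand) and Ddx58 (chr4:40239776-40240075, minus strand), which had high ratios in the microglia-like nuclei described below, are given with the match in capitals:
Stat2: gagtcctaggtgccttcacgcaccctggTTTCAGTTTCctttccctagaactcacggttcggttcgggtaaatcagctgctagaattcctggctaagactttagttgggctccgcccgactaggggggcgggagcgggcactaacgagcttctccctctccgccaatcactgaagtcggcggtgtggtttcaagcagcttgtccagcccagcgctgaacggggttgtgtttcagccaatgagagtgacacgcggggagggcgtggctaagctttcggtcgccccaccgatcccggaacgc
Ddx58: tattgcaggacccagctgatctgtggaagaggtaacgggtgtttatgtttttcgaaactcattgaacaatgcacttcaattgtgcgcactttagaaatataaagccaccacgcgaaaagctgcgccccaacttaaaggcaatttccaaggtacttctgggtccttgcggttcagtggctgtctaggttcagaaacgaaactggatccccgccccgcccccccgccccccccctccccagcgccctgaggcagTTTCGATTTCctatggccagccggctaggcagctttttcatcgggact

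Within oligodendrocyte-like nuclei (273 at day 3, 200 at day 7), 3627 genes reached a mean of 50 CPM of the class, 25 (0.689%) were past the fold as higher and 72 (1.99%) as lower, and the median log2 ratio was -0.02. Sham values in this class come mostly from another cluster than those of days 3 and 7, and days 3 and 7 filled the clusters in different proportions, whose part in these ratios was not tested. Fmn1, an actin-nucleating formin, stood at 103 CPM in the sham library, 57.1 CPM at day 3 and 240.5 CPM at day 7 (ratio 4.21, 2.85 to 6.38), and Shroom3, an actin-binding protein, at 152, 29.4 and 121 CPM (4.12, 2.38 to 7.52). Fam13c (185, 151 and 422 CPM, 2.80, 2.18 to 3.64) and the scaffold Magi1 (658, 338 and 735 CPM, 2.18) were higher as well. Spock1 remained past the fold inside the class, at 740.1, 725 and 1496 CPM (2.06, 1.83 to 2.33). Sgk1, a kinase induced by glucocorticoids, was 2.48-fold lower at day 7 (502, 474 and 192 CPM, interval 1.96 to 3.15). The glycolytic enzyme gene Gapdh (108, 118 and 31.3 CPM) was 3.76-fold lower, the ribosomal protein gene Rps2 (71.9, 126 and 37.1 CPM) 3.40-fold, the tubulin gene Tubb5 3.78-fold and Mt3 (147, 255 and 104 CPM) 2.46-fold. Rps2 overlaps Snhg9, and the strand used in counting is not known, so its reads cannot be assigned. Free RNA held more of each of these transcripts than the class did. At days 3 and 7 it had 633 and 474 CPM of Gapdh, 497 and 462 CPM of Rps2, and 372 and 374 CPM of Tubb5. For Mt3 it had 1737 and 1565 CPM. The part of free RNA in these ratios was not tested.

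In the same nuclei, none of 15 myelin genes was past the fold and their median was -0.09, with Mbp at 4495, 4049.6 and 3674 CPM in sham control, day 3 and day 7 (0.907). Opalin, a marker of mature oligodendrocytes, stood at 302, 151 and 246 CPM (1.64, 1.23 to 2.17). The 4 newly formed oligodendrocyte genes compared had a median of 0.45, among them Fyn at 93.1, 86.6 and 147 CPM (1.69). The 8 injury-linked genes had a median of 0.28, with Il33 at 405, 296 and 432 CPM (1.46, 1.19 to 1.79) and the noncoding Pvt1 at 165, 125 and 213 CPM (1.71). Iron and metal genes (4, median -0.79, 1 lower) and glucocorticoid-responsive genes (7, median -0.55, 1 lower) lay lower. Fkbp5, a chaperone that dampens the glucocorticoid receptor, stood at 105, 246 and 125 CPM (0.509), but Plin4, a lipid droplet protein in the same list, at 70.3, 72.7 and 139 CPM (1.91). The 6 mitochondrially encoded genes had a median of -0.66.

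Within astrocyte-like nuclei (179 and 55), 57 of 3783 genes (1.51%) were higher and 101 (2.67%) lower. Vim stood at 36.3 CPM in the sham library, 278 CPM at day 3 and 63.8 CPM at day 7 (4.36-fold lower, 2.61 to 7.80), with at most 25.4% of UMIs in 1 nucleus. S100a6 stood at 2.79, 138 and 27.9 CPM (4.96-fold lower, 2.31 to 12.7). It had 88 UMIs in 29 nuclei at day 3, 26.1% of them in 1 nucleus, and 7 UMIs in 4 nuclei at day 7. Gfap stood at 112, 683 and 371 CPM (ratio 0.543, 0.429 to 0.681). In each of these genes of reactive astrocytes day 7 lay between sham control and day 3. Of 6 reactive genes 2 were past the fold as lower and the median was -0.55, while of 14 homeostatic genes none was past the fold and the median was 0.14. Slc1a2 stood at 6961, 7154 and 7663 CPM (1.07) and the glypican gene Gpc5 at 8332, 6935 and 7922 CPM (1.14), but Aqp4 at 248, 503 and 271 CPM (0.539, 0.408 to 0.702). The metallothionein gene Mt2 was 2.2-fold lower (207, 623 and 283 CPM) and the chaperone gene Hspa8 2.69-fold lower (142, 118 and 43.9 CPM). On the other side were Acss3 and Acss2, enzymes that activate short-chain fatty acids, at 97.7, 45.6 and 167 CPM (3.67, 2.23 to 6.11) and 72.6, 58.2 and 163 CPM (2.81, 1.76 to 4.50). The secreted chemokine-like Fam19a1 stood at 69.8, 118 and 319 CPM (2.7), and the cholesterol synthesis list of 6 genes had a median of 0.63. St18, an oligodendrocyte marker, was 8.15-fold lower (151, 195 and 23.9 CPM) in this class, with 21.0% of its UMIs in 1 nucleus.

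Microglia-like nuclei were few (114 and 65), and 275 of 4503 genes (6.11%) were past the fold as higher and 239 (5.31%) as lower, so that single genes carry wide intervals. Of the interferon list 6 of 10 genes were higher and none lower, with all 10 ratios above 1 and a median of 1.19. Of the 10 genes 2, Ddx58 and Oasl2, were below 50 CPM at day 3 and entered only through day 7, and both are among the 6. The counts are therefore a description, and the other 4 of the 6 were above 50 CPM in both libraries. Stat2 had 12 UMIs at day 3 and 34 at day 7 (50.3 CPM in the sham library, 51.6 CPM at day 3, 247 CPM at day 7, ratio 4.8, 2.42 to 10.2). Ddx58, which encodes the RNA sensor RIG-I, had 3 and 14 UMIs (12.9 and 102 CPM, 7.90, 2.2 to 42.9). Parp14 (191, 112 and 313 CPM, 2.80), Rnf213 (161, 163 and 400 CPM, 2.45), Trim30a (201, 206 and 437 CPM, 2.12) and Oasl2 (30.1 CPM at day 3 and 109 CPM at day 7, 3.63) completed the count, and B2m stood at 90.5, 206 and 335 CPM (1.62). Cd83, a surface protein of activated myeloid cells, stood at 101, 47.3 and 269 CPM (5.69, 2.84 to 12.4), and the unconventional myosin Myo1e at 161, 370 and 997 CPM (2.7, 2.04 to 3.57). Cd9, a tetraspanin, stood at 141, 189 and 524 CPM (2.77, 1.88 to 4.13) and the growth factor gene Igf1 at 0, 125 and 357 CPM (2.86). Of 9 homeostatic genes none was past the fold, and their median was 0.18, with P2ry12 at a ratio of 0.996. Class II genes were 4 of 4 higher, but 83.3% to 96.4% of their UMIs came from 1 nucleus.

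The libraries also differed in their numbers of myeloid nuclei by cluster. A finer clustering divided the class into 79 and 55 microglia-like nuclei, 32 and 9 nuclei with markers of border or blood myeloid cells, and 3 and 1 nuclei that fell to a mixed cluster. Without the border or blood myeloid nuclei 334 genes (7.44%) were past the fold as higher and 319 (7.11%) as lower. Over the whole class the iron and metal list had a median of -0.83, the mitochondrially encoded list of -1.53 and the reactive myeloid list of -0.34. In the 40 and 30 nuclei above 2000 UMIs these medians were -1.67, -2.10 and -0.61, and under a neuronal cut of 0.1% they were -1.21, -1.87 and -0.48. Without the border or blood myeloid nuclei they were -0.70, -0.42 and 0.36, and the interferon median was 1.24. The homeostatic median turned from 0.18 to -0.14 and the lysosomal median from -0.19 to 0.33. Gpnmb stood at 0 CPM in the sham library, 344 CPM at day 3 and 72.8 CPM at day 7 in the whole class (4.73-fold lower), and without those nuclei had 1 UMI at day 3 and 5 at day 7. Spp1, osteopontin, had a ratio of 1.05 in the whole class (80.4, 654 and 684 CPM) and of 3.30 (2.01 to 5.60) without them. Apoe had a ratio of 0.792 (603, 4137 and 3276 CPM) and of 1.54 (1.30 to 1.82), and Igf1 one of 10.3 (4.06 to 33.4) without them. With the clusters taken, Apoe thus changed side and Spp1 passed the fold, whereas Stat2 (6.06, 2.64 to 16.2), Cd83 (5.95, 2.73 to 14.8) and Fth1 (0.610, 0.401 to 0.913) kept theirs. Ftl1 had 25 UMIs at day 3 and 0 at day 7 in the class, at least 4.92-fold lower, and 4 and 0 without those nuclei. Bank1 (9.26-fold lower, 2.98 to 46.5) and Prkdc, the DNA repair kinase (10.0-fold lower), had ratios of 0.0941 and 0.107 without them.

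**Figure D5:**
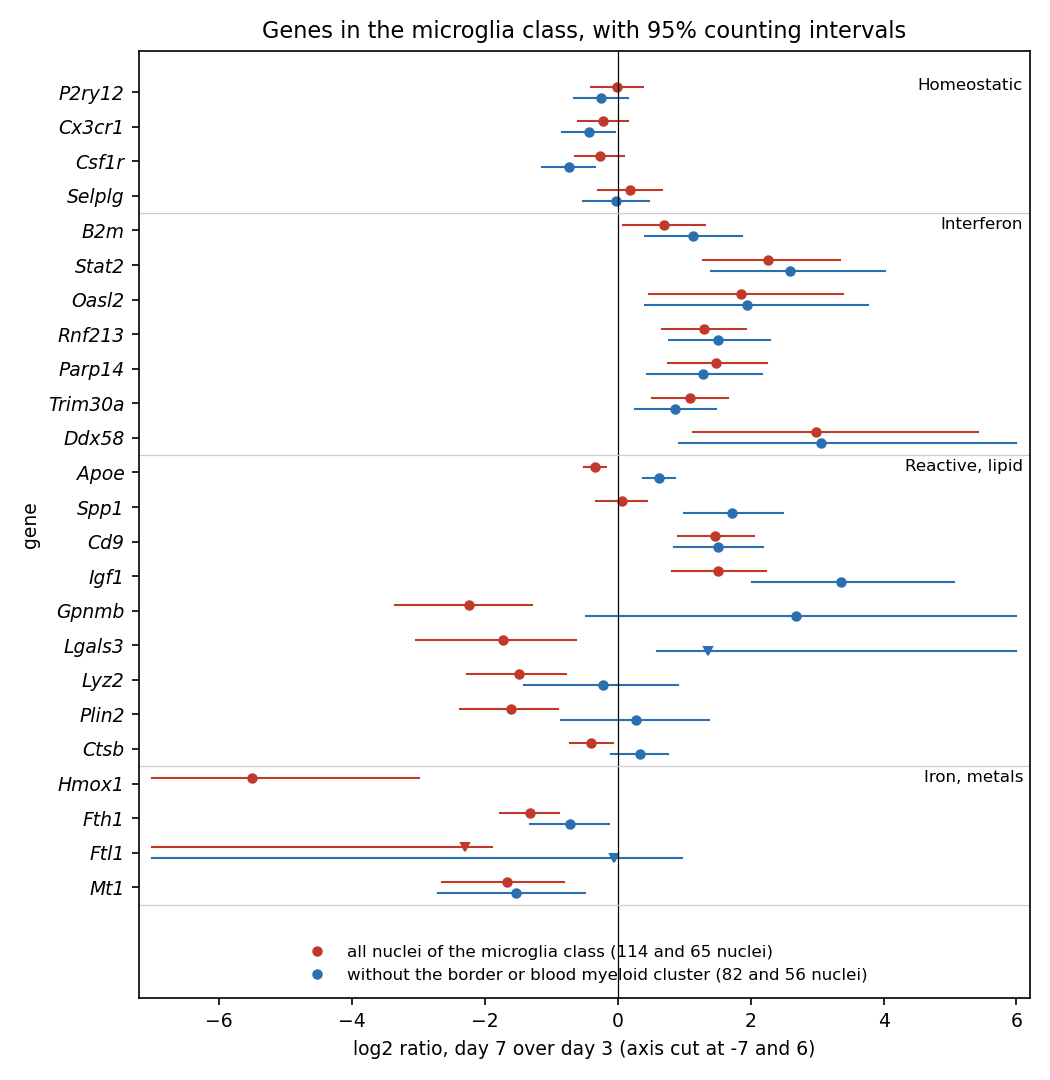
Day 7 to day 3 ratios (log2) of named genes in microglia-like nuclei, for the whole class and without the nuclei of the border or blood myeloid cluster, with exact 95% intervals as bars and triangles where 1 library held 0 UMIs and the floor was used. Stat2 and Igf1 lie above 0 in both settings, while Spp1 and Apoe lie higher without the border or blood myeloid nuclei.

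The proliferation list rested on few counts, and its median depended on the filter. Of 24 genes 5 were compared, with a median of -0.08, and 17 of the other 19 had a lower level at day 7 than at day 3. With no filter on the level the median was -0.84, at the day 3 make-up -0.40, and with each nucleus thinned to 1000 UMIs 0.20. Top2a, a topoisomerase of dividing cells, stood at 13.4, 27.9, 34.7 and 18.2 CPM in sham control, day 1, day 3 and day 7 (0.524, 0.345 to 0.777). Mki67, a marker of cycling cells, had 58 UMIs at day 3 and 14 at day 7, the kinesin gene Kif15 had 49 and 9, and the cell cycle kinase gene Cdk1 had 18 and 2.

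Most of the remaining lists lay close to all genes. Homeostatic microglia genes (0.21), lysosomal genes (-0.05), phagocytosis genes (-0.03), complement genes (-0.14), TGF-beta signalling (0.13), gp130 signalling (-0.11), proteoglycans (0.03), cytokines (0.10), hypoxia genes (-0.10), clock genes (-0.04) and ependymal cilium genes (0.10) had no median beyond 0.25 in size. The same held for oligodendrocyte precursor genes (0.01), homeostatic astrocyte genes (-0.16), lipid storage genes (-0.15) and glucocorticoid-responsive genes (-0.22, with Plin4 past the fold at 2.47, or 1.8 at the day 3 make-up). Cholesterol synthesis genes (-0.27), neuronal genes outside the rule (-0.27) and reactive myeloid genes (-0.36, 1 of 12 higher and 3 lower) lay further below. Of 9 neuroblast genes 1 was compared, and none of 5 class II genes reached the level needed. The choroid plexus list was past the fold in both genes compared, Ttr and Clic6. Ttr, transthyretin, stood at 1809, 916, 932 and 2504 CPM, but 47.6% of its UMIs lay in 1 nucleus, and its ratio of 2.69 was 1.42 without the mitochondria-rich barcodes and 4.49 at the day 3 make-up. Only 8 choroid plexus-like nuclei at day 3 and 3 at day 7 were found.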

How the data were processed

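Frozen hemispheres were processed to single-nucleus, droplet-based 3′ libraries, 1 for each of sham control, day 1, day 3 and day 7. The authors mapped reads with STARsolo (STAR 2.7.3a per the labels) to GRCm38 with GENCODE vM8, counted exonic and intronic reads and collapsed UMIs. The deposited values are raw UMI counts for 46983 genes in every barcode, with no filter and no free RNA removal. Library totals were 28195551 UMIs (sham control), 23285489 (day 1), 42963698 (day 3) and 25033355 (day 7).

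Members were selected by the rule and their counts summed per library. With 3 UMIs as the floor, the limit for a gene at 0 is 0.973 CPM at day 3 and 1.61 CPM at day 7. Ratios carry exact conditional binomial intervals and shares exact Clopper-Pearson intervals at the 95% level, and the interval of a difference in shares combines both. Barcodes under 0.4% neuronal transcripts (3270, of which 2562 are members) were clustered in scanpy 1.11.5 (2000 variable genes without the listed genes unless they are markers, each library centred, 30 components, 15 neighbours, Leiden resolution 1.0) and named from 136 markers of 14 classes. Clusters above 20% mitochondrial UMIs were left without a cell type, and doublets were scored with Scrublet and removed only as an alternative. Computation used Python 3.11.15, numpy 2.4.6, scipy 1.17.1 and edgeR 4.0.16 (TMM factors only). Scripts were tested on simulated data.

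Named genes were, in each direction, the 12 whose interval bound nearest to 1 lay farthest from it (under 20% of UMIs in 1 nucleus), 8 per class (under 30%, mean of at least 50 CPM), and in each of the 35 lists (431 genes) up to 2 per direction and the gene with the most UMIs. Other genes printed were chosen after their values were seen. Members, lists and markers were chosen with earlier results of these data known. Positions come from GENCODE vM21 (GRCm38) by gene identifier. Some items are not reported here.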

Additional observations from a re-analysis of the deposited data

Results flagged for a closer look

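Cd9 was flagged because its ratio of day 7 to day 3 pointed in opposite directions in different classes, at 2.77 in microglia-like nuclei and 0.459 in astrocyte-like nuclei, and this difference was not tested. Gm28438 was flagged because it had 1316 UMIs in the barcodes of the day 3 library that were not members, against 0, 0 and 2 UMIs in those of sham control, day 1 and day 7.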

How the results depend on the processing

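Differences in class share stayed inside their 95% interval in 47 of 47 alternatives, clusters of the members alone among them (12.8 points for oligodendrocyte-like, -6.85 for astrocyte-like and -2.61 for endothelial-like nuclei), and turned only for precursor-like nuclei (-0.156 points above 2000 UMIs and -0.665 at the 0.1% neuronal cut). List medians moved by under 0.25 on the log2 scale in 471 of 508, by more in 33, and turned in 4 among lists with a median of at least 0.2 in size. Over all lists 52 of 508 changed sign, among them proteoglycans (-0.38 at the 0.1% cut), precursor genes (-0.37 there) and homeostatic astrocyte genes (0.13 at the day 3 make-up). Named genes stayed inside their interval in 1449 of 1630, left it in 180 and turned in 1. The oligodendrocyte-like difference ranged from 10.8 to 14.1 points, the astrocyte-like from -9.82 to -5.37 and the endothelial-like from -4.78 to -2.55. Members numbered 625 at day 3 above 2000 UMIs, and 539 at day 3 and 319 at day 7 under a neuronal cut of 0.1%. Against 61 higher and 61 lower genes, the 0.1% cut gave 96 and 108, nuclei thinned to 1000 UMIs 147 and 216, a mean of 50 CPM 26 and 17 (60.5% of calls higher), and no filter on level 797 and 1100. The day 3 make-up gave 44 and 33, and lower genes numbered 186 with free RNA subtracted at the share that takes all neuronal RNA as free (32.4% of calls higher) and 95 without mitochondria-rich, mixed and unnamed clusters (36.7%), where dropping the mitochondria-rich clusters alone left 40.4% of calls higher. At the day 3 make-up the medians of angiogenesis (0.21), blood-brain barrier (0.087) and myelin genes (-0.077) turned. The blood-brain barrier median was -0.82 as a mean over nuclei and -0.82 thinned, the newly formed oligodendrocyte median 0.22 without mitochondria-rich, mixed and unnamed clusters, and thinning turned the p53 and integrated stress median (0.0039) and Clic6 (log2 -0.31). Within classes, oligodendrocyte-like higher genes numbered 58 above 2000 UMIs and 85 at the 0.1% cut (157 lower), astrocyte-like higher genes 95 at 0.1%, and microglia-like genes 450 higher and 384 lower above 2000 UMIs and 374 lower at 0.1%. Leaving out named clusters and clustering the members alone were chosen after seeing the data. Except where the construction uses fewer nuclei or UMIs, the cause was not tested. No paired analysis was possible because each group holds 1 library.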
